A study of Mus musculus with 4 samples.

Results

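The proteins of the small ribosomal subunit are encoded by the genes named Rps with a number and by Rpsa. Their messenger RNAs were followed here in exosomes, small vesicles released by cells. The genes were taken as every protein-coding row of the deposited gene table whose symbol begins with Rps and a digit or is Rpsa. The S6 kinases (Rps6k) and Rps19bp1, which are not ribosomal proteins, were left out. This gave 35 of the 42977 rows of the table, of which 22633 were protein-coding.

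The exosomes came from bone marrow mesenchymal stem cells (MSCs) of male SD rats aged 6 to 8 weeks, grown to passages 3 to 4. In the group MSCATV-Exo the cells had been given 1 µmol/L atorvastatin, a statin that blocks the synthesis of cholesterol, and in MSC-Exo an equal volume of DMSO, the solvent. Each group had 2 libraries, and the labels tie no library to an animal or a culture. Every SD, SE and p-value of the fits made here therefore measures the spread between these libraries, which may be technical. The authors' own p-values and q-values, also given below, come from a test that is not named. The labels give the exposure as 24 h in one field and 48 h in another. Exosomes were taken from the conditioned medium of 10 dishes of 15 cm, and the labels describe both ultracentrifugation and a commercial reagent. Mouse is the organism registered for the samples, while the cells, the genome build and the gene table are those of rat.

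The small ribosomal subunit, also called 40S, binds the messenger RNA and checks the pairing of transfer RNA with each codon. It is built from 18S ribosomal RNA and a set of proteins that assemble in about equal amounts, and it is divided into a head, a body and a platform. The messenger RNAs of these proteins are short, abundant in growing cells, and start with a run of pyrimidines through which the kinase complex mTORC1 controls their translation together. In bulk exosome RNA, fewer vesicles carrying a transcript and less of it per vesicle cannot be told apart.

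Values for the 4 libraries are always given in one order, the first and second replicate of MSC-Exo and then those of MSCATV-Exo. The gene counts summed to 5350295, 5355098, 5947020 and 5598378. Ribosomal RNA rows together with LOC257642, a row described as an rRNA promoter binding protein, took 37.1%, 37.5%, 43.3% and 38.6% of them. Olfactory receptor genes, which are silent outside the olfactory epithelium, had median levels of 2.48, 2.36, 1.71 and 2.28 RPKM (reads scaled by gene length and library total), and a level near this is the background of the table. This background was lower in both MSCATV-Exo libraries, most of all in replicate 1, and its part in the results below was not tested. Of the 6 MSC markers found, Thy1 and Itgb1 exceeded 3 times that background in every library. The summed level of the MSC markers ran from 203 to 237 CPM, which are counts relative to each library's total after edgeR's TMM scaling. Leukocyte markers summed to 55.1 to 77.1 CPM, erythroid to 33.7 to 51.0 CPM, endothelial to 120 to 140 CPM and hepatocyte to 16.3 to 18.2 CPM. No marker of these lists was at 0 in every library. None of the leukocyte, erythroid, endothelial and hepatocyte markers exceeded 3 times the background in every library. Their part in the results below was not tested. The exosome markers summed to 85.5, 76.1, 87.1 and 111 CPM, and 1, 1, 4 and 4 of the 6 exceeded 3 times the background, so that both measures were higher in MSCATV-Exo. Of them, Cd63 exceeded it in every library. The part of the exosome markers in the results was not tested either.

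Most small-subunit genes were detected far above that background. Of the 35 genes, 28 had mean levels between 47.4 and 225 RPKM, with a median of 112 RPKM. They ranked 18th to 161st among the protein-coding genes of the table. In single libraries, 29, 31, 30 and 30 of the 35 exceeded 3 times the olfactory receptor median. The remaining 7 genes were 3 at low levels (Rps4y2, Rps27l and Rps10l1), a row for Rps19 at the background and 3 rows at 0 in every library.

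**Figure D1:**
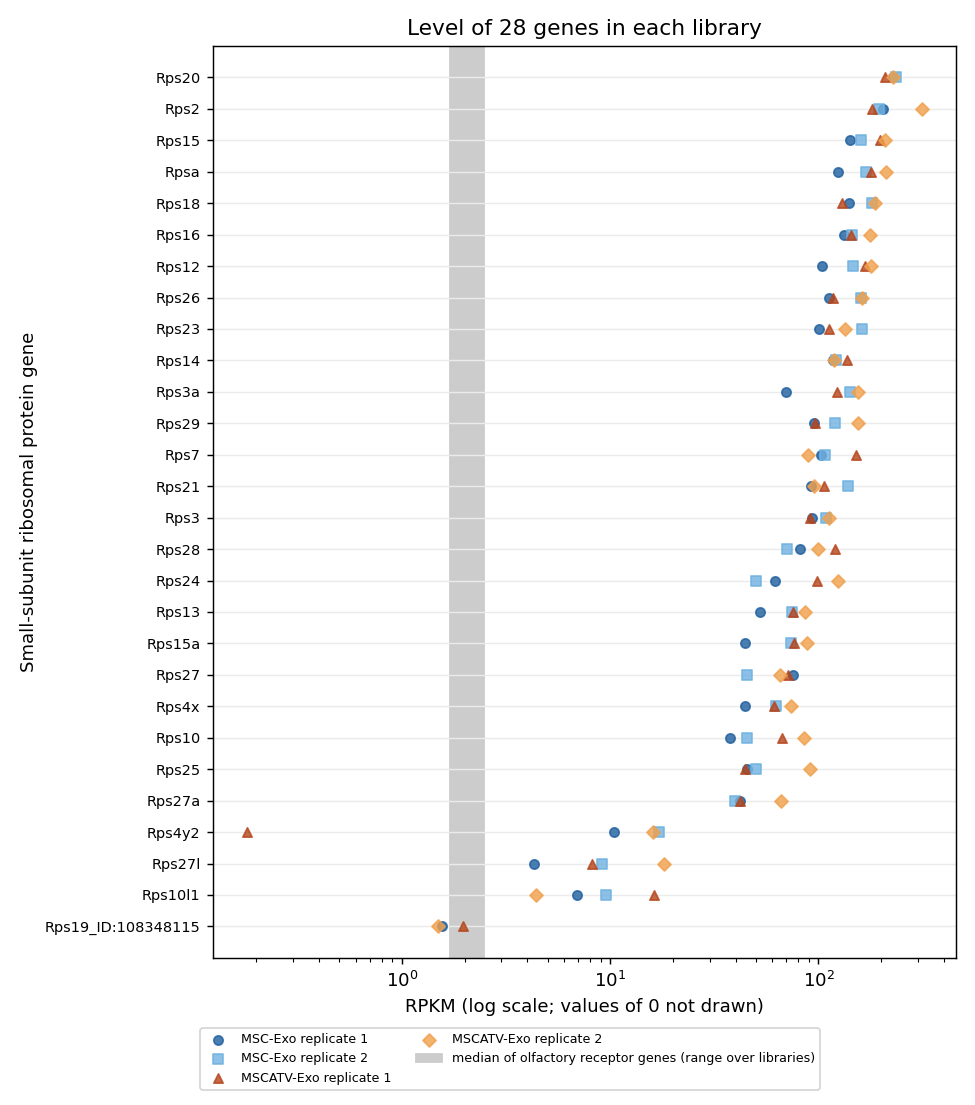
Level of 28 small-subunit ribosomal protein genes in RPKM (horizontal axis, log scale) in each of the 4 libraries (points), ordered by mean level, with the range of the olfactory receptor median as a grey band. The upper 24 genes, all of them abundant, lie between 37.6 and 313 RPKM in single libraries, Rps4y2, Rps27l and Rps10l1 lie below them, and genes at 0 in every library are not drawn.

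Among the 28 abundant genes the highest mean level was 4.76 times the lowest, and the coefficient of variation over genes was 41.8%. Rps20, a head protein, was highest, at 227, 237, 209 and 228 RPKM. Rps2, a body protein close to the entrance of the messenger RNA channel, had 204, 196, 180 and 313 RPKM. Its highest value, in MSCATV-Exo replicate 2, was the highest of any member in any library, and the other 3 libraries lay close together.

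Next in level were the head proteins Rps15, Rps18 and Rps16 and the body protein Rpsa, which is also known as the laminin receptor precursor. Rps15 had 141, 160, 198 and 208 RPKM, and its MSCATV-Exo libraries were the higher pair. Rpsa had 125, 169, 178 and 212 RPKM, in the same arrangement. Rps18 had 140, 181, 130 and 187 RPKM, and its groups overlapped. Rps16 had 132, 145, 144 and 177 RPKM, and here MSC-Exo replicate 2 lay just above MSCATV-Exo replicate 1.

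The order of the abundant genes was not resolved from neighbour to neighbour. None of the 27 neighbouring pairs differed in mean level by more than the pooled SD over the 4 libraries. Over all 31 neighbouring pairs down to the Rps19 row, 2 did: the step from Rps27a, the lowest abundant gene, to Rps4y2, and the step from Rps10l1 to Rps19. Across the 28 genes the ranks of the levels were nonetheless alike between libraries, with Spearman's rho between 0.81 and 0.87 for the 6 pairs of libraries. The points share the gene lengths and the mapping of the table, so these coefficients describe the table. Gene length ran from 318 bases (Rps29) to 1094 bases (Rpsa) and had a rho of 0.017 with the level in RPKM over the same 28 genes.

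At the other end, Rps6, Rps9 and the Rps19 row on chromosome 9 were listed at 0 in all 4 libraries. At this depth 0 counts leave room for 3, which is 0.504 to 0.561 CPM, for counting error only. Rps6 is the substrate of the S6 kinases, Rps9 is a body protein that binds 18S rRNA early in assembly, and Rps19 is a head protein needed for maturation of the subunit. Among all protein-coding genes 1091, or 4.82%, were at 0 in every library.

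Each of these 3 genes has a second row for the same protein. Rps9 lies on chromosome 1 at 64086625-64090023 of the rat build rn6, on the minus strand. LOC103689992, described as 40S ribosomal protein S9, lies at 64018325-64021723 on the same strand, and both rows have a length of 926 bases over a span of 3399 bases. Both were at 0 in every library. Rps6 lies on chromosome 5 at 105197821-105200681, and LOC100911372, described as S6-like, at 105209844-105212791 on the same strand. The S6-like row had 2, 22, 38 and 9 counts, so neither group was clear of the other. The Rps19 row at 0 lies on chromosome 9 at 16802280-16807982, and the other Rps19 row, on chromosome 1 at 81750873-81756629, had 5, 0, 7 and 5 counts. That second row was too low to be tested. The Rps9 row overlaps the rows Vom1r29 and Vom2r7. The Rps19 row on chromosome 9 overlaps Cul9 and that on chromosome 1 overlaps Vom2r7, while Rps6 overlaps no other row. How reads that align to more than 1 place, or that fall in overlapping rows, were counted is not given in the sources used here. So the zeros say that the rows received no counts and not that the transcripts were absent. The parts of alignment to copies and of overlapping rows in them were not tested.

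The question of the comparison was whether the small-subunit transcripts differed between exosomes of MSCs given atorvastatin and of MSCs given DMSO. The median level of the 31 tested genes was 92.1, 107, 106 and 113 RPKM in the 4 libraries. The summed counts of all 35 genes were 8937, 10776, 12067 and 13473, or 0.167%, 0.201%, 0.203% and 0.241% of the gene counts. Exact (Clopper-Pearson) 95% binomial intervals of these shares were 0.164 to 0.171%, 0.197 to 0.205%, 0.199 to 0.207% and 0.237 to 0.245%, and cover counting error only. The share was lowest in MSC-Exo replicate 1 and highest in MSCATV-Exo replicate 2, and the middle libraries, one from each group, had overlapping intervals. With the ribosomal RNA rows and LOC257642 taken out of the total, the shares were 0.266%, 0.322%, 0.358% and 0.392%, and the ranges of the groups were then apart, MSCATV-Exo being the higher.

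No small-subunit gene passed the test. Of 31 tested, 0 had an adjusted p under 0.05 in edgeR's quasi-likelihood test with Benjamini-Hochberg adjustment over all 33480 tested genes. The same held for the whole table, where edgeR called 0.0% of genes, and the smallest adjusted p anywhere was 0.997. At an unadjusted p under 0.05, edgeR had 4 of the 31 genes, 12.9%, against 3.69% of all tested genes. The share was larger, 22.8%, among 79 other protein-coding genes of like level. These lie in the range of mean RPKM of the 28 abundant genes, with the 35 small-subunit and 53 large-subunit genes left out. Ribosomal proteins under other names, such as Fau (106 RPKM) and Rack1 (53.0 RPKM), were not left out. Of the large-subunit genes, 5 of 50 had such a p. All 4 small-subunit genes with such a p were higher in MSCATV-Exo, and 1.71% of all genes had such a p in that direction. DESeq2 called 1 of the 31, Rps24, which was higher in MSCATV-Exo, while it called 106 of 32181 genes in all, 0.329%, and 0.158% in the higher direction. Among the genes of like level DESeq2 called 10.1% higher, and among the large-subunit genes 2 of 50.

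By direction alone, 29 of the 31 genes had a log2 fold change above 0, that is a higher level in MSCATV-Exo, against 49.4% of all tested genes. Over the small-subunit genes the median of the log2 ratio of MSCATV-Exo to MSC-Exo was 0.43, and over all tested genes it was -0.01. Abundant transcripts as a class leaned the same way. Of the 79 other genes of like level 79.7% were higher, with a median of 0.24. Among the proteins of the large subunit, 42 of 50 tested genes were higher, with a median of 0.25. Whether the small-subunit genes differed from either class was not tested.

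**Figure D2:**
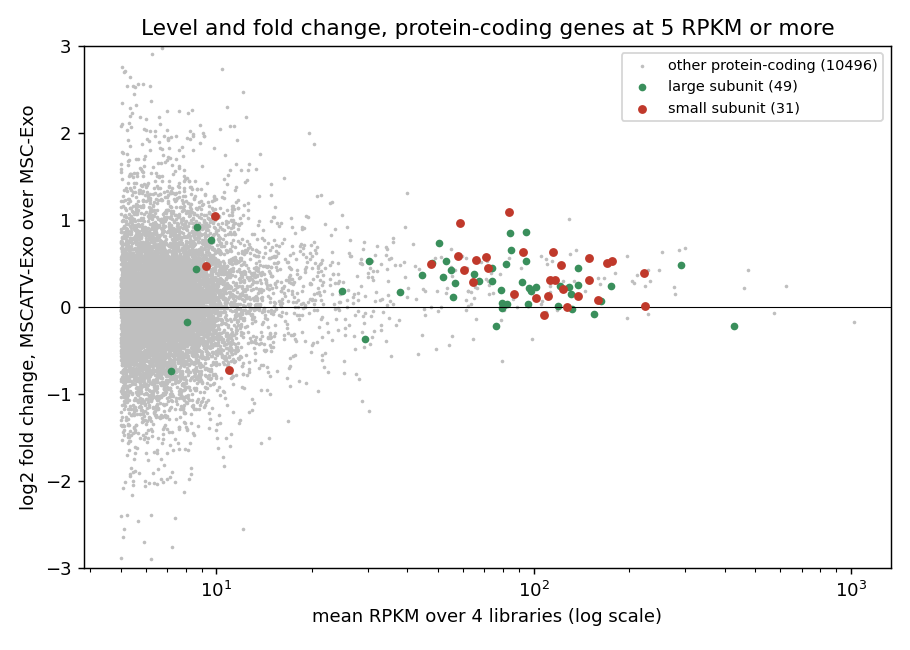
Log2 fold change from edgeR (vertical axis, MSCATV-Exo over MSC-Exo) against mean level in RPKM (horizontal axis, log scale) for tested protein-coding genes of at least 5 RPKM, with the 31 small-subunit genes, 49 large-subunit genes and 10496 other genes marked, LOC257642 left out and 12 other genes beyond the axis limits of 3. Most of the small-subunit points lie above 0 and at the abundant end, where most large-subunit points and most other genes of like level also lie above 0.

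On CPM the groups did not overlap and MSCATV-Exo was the higher for 16 of the 31 genes, against 16.1% of all tested genes and 55.7% of the 79 protein-coding genes of like level. The reverse arrangement was seen for 0 of the 31, against 17.4% of all tested genes and 6.33% of the genes of like level. Scaled to the total gene counts with no further factor, an alternative chosen after seeing the data, 10 of the 31 genes had both MSCATV-Exo libraries on top, against 12.8% of all tested genes.

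Rps24, a body protein whose gene is mutated in some families with Diamond-Blackfan anaemia, had the largest log2 fold change among the abundant genes. Its counts were 206, 166, 364 and 431, or 62.0, 49.9, 98.6 and 124 RPKM. The lower MSCATV-Exo library was well above the higher MSC-Exo library, and each pair of replicates was closer than the groups. The mean was 33.7 ± 4.8 CPM (SD, n = 2) in MSC-Exo and 71.7 ± 7.23 CPM in MSCATV-Exo. The log2 fold change was 1.09 ± 0.29 (SE). The unadjusted p from edgeR was 0.00328 and the adjusted p was 1.00, while DESeq2 gave an adjusted p of 0.0136. With each library left out in turn, the fold change ran from 0.95 to 1.23. Rps24 lies on chromosome 16 at 757390-762091, plus strand, and overlaps no other row of the table.

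Rps10, a head protein also tied to Diamond-Blackfan anaemia, had 113, 137, 224 and 267 counts. The groups were again apart, and the distance between them was larger than that between replicates. The means were 22.7 ± 3.30 CPM and 44.3 ± 4.67 CPM (SD, n = 2 each), and edgeR gave a log2 fold change of 0.97 ± 0.33 (SE) with an unadjusted p of 0.0146 and an adjusted p of 1.00. DESeq2 gave it an adjusted p of 0.147.

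Rpsa had 729, 990, 1161 and 1296 counts, with the groups apart, and a log2 fold change of 0.51 ± 0.23 (SE), with an edgeR p of 0.0470 before and 1.00 after adjustment. Its MSC-Exo replicates differed more than its MSCATV-Exo replicates, with 156 ± 35 CPM (SD, n = 2) against 222 ± 13.1 CPM in MSCATV-Exo.

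Another 4 genes had the next smallest p-values, none under 0.05 before adjustment, and their groups did not overlap on CPM. Rps15 had 372, 422, 579 and 572 counts and a log2 fold change of 0.53 ± 0.25 (SE). Rps12, a head protein, had 301, 424, 536 and 544 counts and 0.57 ± 0.27. In both genes the MSCATV-Exo replicates were nearly equal. Rps28, a small head protein close to the messenger RNA exit, had 148, 128, 241 and 189 counts and a log2 fold change of 0.64 ± 0.34. Rps15a, a body protein, had 139, 230, 264 and 288 counts and 0.57 ± 0.34. For Rps15a the step between the MSC-Exo replicates was larger than that from MSC-Exo replicate 2 to either MSCATV-Exo library. Several of these values depended on which MSC-Exo library was kept: without replicate 1 and without replicate 2 they were 0.33 and 0.85 for Rps12, 0.24 and 0.99 for Rps15a, and 0.29 and 0.76 for Rpsa.

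**Figure D3:**
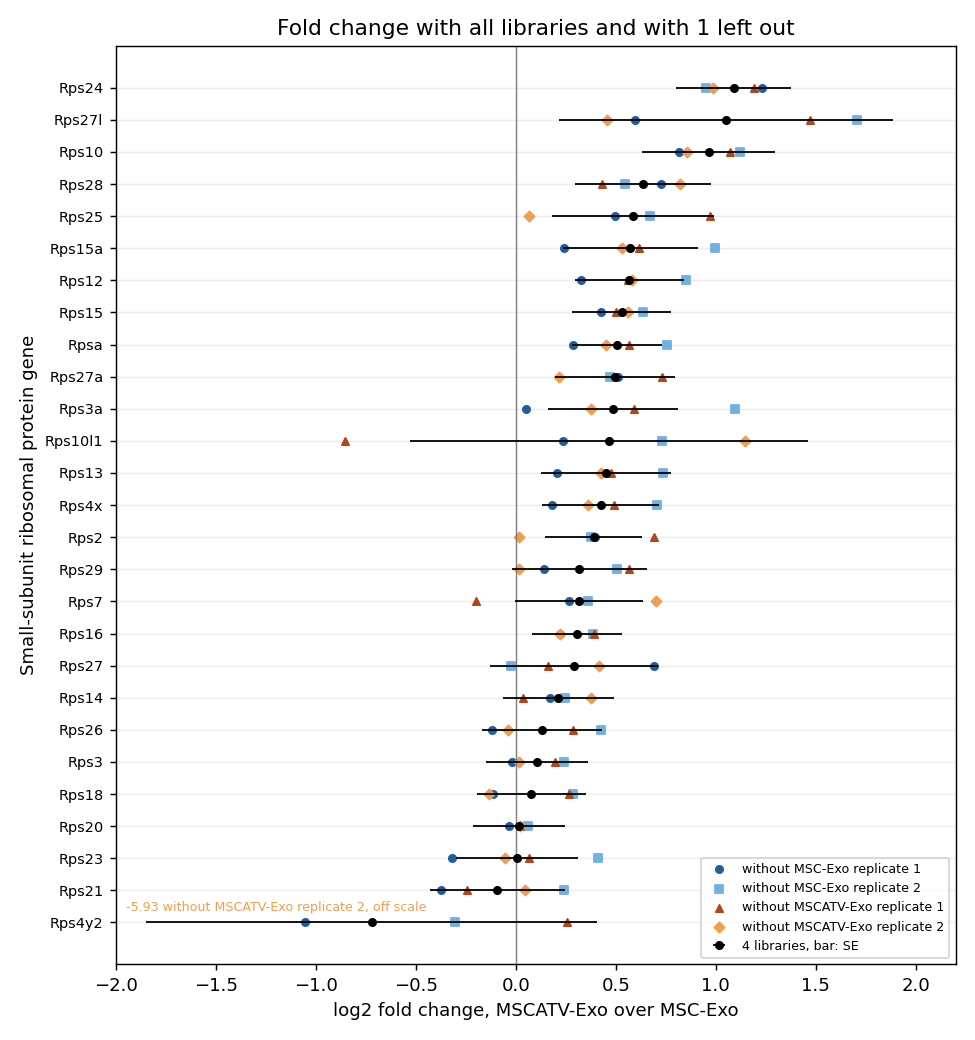
Log2 fold change of 27 of the 31 tested small-subunit genes from edgeR (points, MSCATV-Exo over MSC-Exo) with its standard error (bars) and the values with each library left out in turn (small marks). Over the reduced fits Rps24 is no lower than 0.95 and Rps10 no lower than 0.82, and Rps4y2 without MSCATV-Exo replicate 2, at -5.93, is off the scale.

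Other abundant genes had fold changes near 0. Rps20 had 611, 638, 625 and 643 counts, and its log2 fold change was 0.02 ± 0.23 (SE). All 4 libraries were within a narrow range, at 113 ± 4.57 CPM in MSC-Exo and 115 ± 0.185 CPM in MSCATV-Exo (SD, n = 2 each). Rps18, a head protein, had 410, 530, 424 and 575 counts and a log2 fold change of 0.08 ± 0.27. In each group replicate 2 was the higher library, and the replicates differed by more than the groups. Rps23, a body protein at the decoding centre, had 273, 444, 342 and 382 counts and a log2 fold change of 0.01 ± 0.31, with MSC-Exo replicates at either end of the range. Under total counts without a factor the values of Rps20, Rps18 and Rps23 were -0.09, -0.01 and -0.09, so these 3 genes have no fixed direction.

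Rps21, a small body protein, was the only abundant gene with a log2 fold change under 0 in the main test. It had 170, 255, 217 and 183 counts and a log2 fold change of -0.09 ± 0.34 (SE, edgeR adjusted p = 1.00). The highest and the lowest library were both MSC-Exo, and without MSC-Exo replicate 2 the value was 0.24. Rps16, at 642, 705, 775 and 898 counts, had a log2 fold change of 0.31 ± 0.22 with groups apart on CPM. The row of Rps16 overlaps the rows Nccrp1 and Vom2r7. Rps2, at 1022, 985, 1003 and 1644 counts, had 0.39 ± 0.24. That value rested on MSCATV-Exo replicate 2, since the other 3 libraries lay at 180 to 184 CPM, and without it the log2 fold change was 0.02.

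The paralogues differed in level from their parent genes. Rps27 and Rps27l encode closely related zinc-finger proteins of the platform, of which Rps27l is induced by p53 in many cells. Rps27 had 139, 83, 146 and 126 counts, or 75.7, 45.2, 71.6 and 65.6 RPKM. MSC-Exo held both the low library and a high one, and the log2 fold change was 0.29 ± 0.42 (SE). Rps27l had 16, 34, 34 and 71 counts, or 4.28, 9.10, 8.19 and 18.2 RPKM. MSC-Exo replicate 2 and MSCATV-Exo replicate 1 had equal counts, MSCATV-Exo replicate 2 was highest, and the log2 fold change was 1.05 ± 0.83. Its SE was about as large as the value.

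Rps4x, the X-linked gene for protein S4, had 226, 319, 346 and 390 counts, or 44.5, 62.8, 61.3 and 73.4 RPKM. The groups were apart on CPM but overlapped on RPKM, and the log2 fold change was 0.43 ± 0.29 (SE). Rps4y2, a paralogue placed on chromosome 4 in this table, had 52, 86, 1 and 84 counts, or 10.4, 17.2, 0.180 and 16.1 RPKM. MSCATV-Exo replicate 1 was near 0, far under the other 3 libraries. The log2 fold change of -0.72 ± 1.13 (edgeR adjusted p = 1.00) therefore rested on 1 library, and without MSCATV-Exo replicate 1 it was 0.26. Without MSCATV-Exo replicate 2 it was -5.93, with an edgeR adjusted p of 0.0132, from the library with a single count. The row spans 182745448-182746381 on the plus strand with no intron, inside Tmtc1, which is on the opposite strand. The library kit does not mark strand, so reads of the overlapping genes cannot be told apart.

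Rps10l1, an intronless copy of Rps10 on chromosome 6, had 21, 29, 55 and 14 counts. The MSCATV-Exo libraries were the highest and the lowest, and its log2 fold change of 0.47 ± 0.99 (SE) was smaller than its error. Rps27a encodes ubiquitin fused to a head protein, from which ubiquitin is cut free. It had 244, 232, 273 and 402 counts, or 41.8, 39.7, 42.1 and 65.8 RPKM. MSCATV-Exo replicate 2 stood above the other 3 libraries, which were close, and the log2 fold change was 0.50 ± 0.30.

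Further abundant genes were Rps3, Rps3a, Rps7, Rps13, Rps14, Rps25, Rps26 and Rps29. Their log2 fold changes ran from 0.11 (Rps3) to 0.59 (Rps25), and edgeR called none. Rps25, a head protein used by some viral and cellular internal ribosome entry sites, had 113, 125, 123 and 237 counts, with only MSCATV-Exo replicate 2 apart. The row of Rps25 overlaps Ccdc84 on the opposite strand, so reads of the overlap cannot be told apart here either. Rps3a, a platform protein, had 323, 652, 627 and 749 counts, with only MSC-Exo replicate 1 apart.

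Grouped by place in the subunit, the 13 tested head genes all had log2 fold changes above 0, with a median of 0.50 and 7 with groups apart. Of 11 tested body genes 9 were higher, with a median of 0.39 and 6 apart. All 6 platform genes were higher, with a median of 0.37 and 3 apart. Grouped by conservation, the 14 tested proteins with a counterpart in bacteria were all higher, with a median of 0.31, and the 16 without one had 14 higher and a median of 0.49. For comparison, 79.7% of the genes of like level were higher and 55.7% had groups apart in that direction. edgeR called none in any of these groups, and the differences between groups were not tested.

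The 2 libraries of a group also differed from each other. The median size of the log2 difference between replicates was 0.39 in MSC-Exo and 0.25 in MSCATV-Exo over the 31 genes, and the median size of the difference between group means was 0.45. Over all tested genes with counts in every library the replicate differences were larger, at 0.56 in MSC-Exo and 0.64 in MSCATV-Exo. For 9 of the 31 small-subunit genes the difference between groups exceeded both replicate differences. The share of all tested genes for which this held was not computed, so the 9 cannot be set against it. MSC-Exo replicate 1 was the lowest of the 4 libraries for 23 of the 31 genes, against 24.7% of all tested genes, 51.9% of the genes of like level and 32 of 50 large-subunit genes. MSCATV-Exo replicate 2 was the highest for 18, MSCATV-Exo replicate 1 for 9 and MSC-Exo replicate 2 for 4. For the highest library too, the share over all tested genes was not computed.

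The MSC-Exo library chosen as the base set the size of the difference. Against MSC-Exo replicate 1, MSCATV-Exo replicate 1 was higher for 29 genes with a median log2 difference of 0.53, and MSCATV-Exo replicate 2 for 28 with a median of 0.61. Against MSC-Exo replicate 2, the same libraries were higher for 21 genes with a median of 0.13 and for 24 with a median of 0.26. Within MSC-Exo, 26 of the 31 genes were lower in replicate 1 than in replicate 2, with a median log2 difference of -0.35, and within MSCATV-Exo 21 were lower in replicate 1, with a median of -0.12. The MSC-Exo difference was -0.13 over the genes of like level and -0.01 over all tested genes. With MSC-Exo replicate 1 left out, 23 of the 31 genes were higher in MSCATV-Exo and the median difference was 0.22 on the log2 scale. Over all genes tested in that fit, 51.1% were higher and the median was 0.025. Over the 4 fits that each left out 1 library, 20 of the 31 genes stayed above 0 in every fit and 11 took both signs. The share of all tested genes that kept their sign was not computed.

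**Figure D4:**
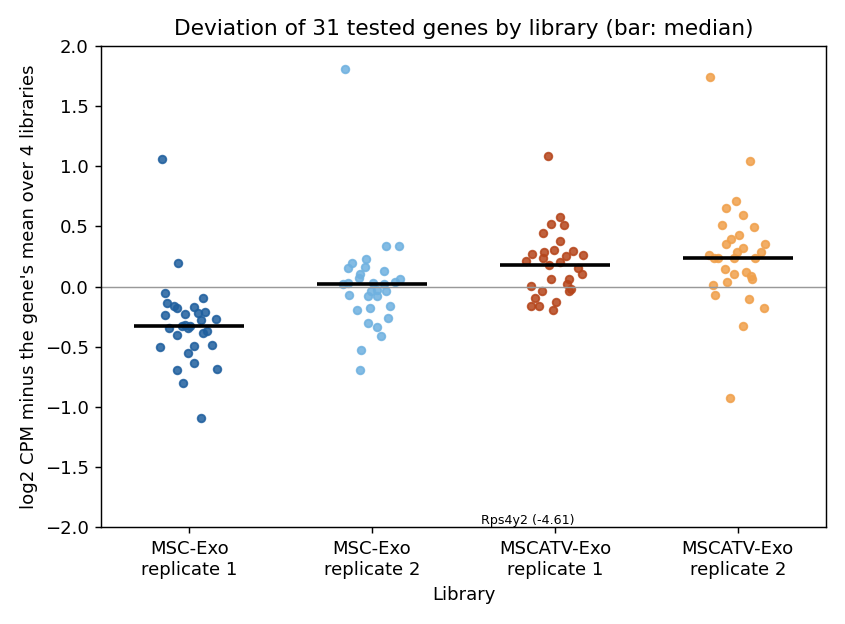
Deviation of each tested small-subunit gene (points) from its own mean over the 4 libraries, in log2 CPM (vertical axis), for each library (horizontal axis), with the median as a bar. The medians are -0.32, 0.02, 0.18 and 0.24 in library order, the clouds overlap between all neighbours, and Rps4y2 in MSCATV-Exo replicate 1, at -4.61, is off the scale.

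The authors' deposited table gives a p-value and a q-value for each gene from a test that is not named in the sources used here. Whether that test used the spread between the libraries is therefore not known. For Rps4y2, with 52, 86, 1 and 84 counts, the authors' p-value was 0.0031, while the unadjusted p from edgeR was 0.54. At q under 0.05, the authors' deposited table had 17 of its 32 small-subunit genes higher in MSCATV-Exo, against 12.4% of all its genes, and 1 lower, Rps4y2, against 21.9%. Over both directions the authors' deposited table called 34.3% of its genes. Of the 17 higher genes, 14 had groups apart on CPM and 3 had groups that overlapped. The calls and the separation of the groups come from the same 4 libraries. Over all genes the authors called higher, the share with groups apart was not computed, so the 14 cannot be set against it. For genes of like level, the share called by the authors was not computed either. The authors' deposited table gave Rps24 mean levels of 56.0 and 111 RPKM and a log2 ratio of 0.99, and gave Rps10 a log2 ratio of 0.87. Its MSC-Exo means equalled the MSC-Exo means of the deposited RPKM values for 38009 of 38009 matched genes, within 0.1%. Its MSCATV-Exo means were not checked in this way over all genes.

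Fau and Rack1 make small-subunit proteins but carry other names and fall outside the rule. Fau, a ubiquitin-like fusion with protein S30, had 166, 319, 364 and 370 counts. MSC-Exo replicate 1 was low and the other 3 libraries were close, and edgeR gave a log2 fold change of 0.59 ± 0.34 (SE). Rack1, a head-bound scaffold for signalling kinases, had 317, 354, 374 and 382 counts and a log2 fold change of 0.17 ± 0.26.

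The genes that build and use the subunit were less abundant than those of its proteins, with median levels of 4.81 to 11.4 RPKM against 92.8 RPKM over the 35 genes, and their directions were mixed. Of 19 tested 40S assembly factors, 8 were higher and 11 lower in MSCATV-Exo (median -0.13, log2). Bysl, which acts in pre-40S maturation, had 129, 97, 42 and 41 counts and -1.45 ± 0.52 (SE), and Tsr1, a GTPase-like maturation factor, had 0.33 ± 0.31. Of 30 tested genes of the SSU processome, which cleaves the rRNA precursor, 14 were higher and 16 lower, with a median of -0.03. Nol6 had 221, 177, 358 and 350 counts and 0.83 ± 0.29, and Wdr43 had -0.92 ± 0.49. The groups were apart for both Bysl, with MSCATV-Exo lower, and Nol6, with MSCATV-Exo higher. The genes named here and in the next paragraph were picked as the smallest edgeR p of their list in each direction. Mean levels of Bysl, Tsr1, Nol6 and Wdr43 were 8.47, 11.8, 7.48 and 5.70 RPKM, against 2.72 RPKM for olfactory receptor genes. Groups were apart with MSCATV-Exo above for 3 assembly factors and below for 4. For the processome genes these counts were 5 and 6, against 16.1% and 17.4% of all tested genes.

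Of 28 initiation factors that load onto the 40S subunit, 18 were higher and 10 lower, and the median was 0.20 on the log2 scale. Groups were apart with MSCATV-Exo above for 9 of the 28 and below for 2, against 16.1% and 17.4% of all tested genes. Eif5b, the GTPase that joins the subunits, had 0.79 ± 0.28 (SE), and Eif3b, a core subunit of initiation factor eIF3, had -0.44 ± 0.34. Among 18 genes of mTORC1 and the S6 kinases, 10 were higher and 8 lower, with a median of 0.03. Here 1 gene had groups apart with MSCATV-Exo above and 2 with MSCATV-Exo below. Tsc1, an inhibitor of mTORC1, had 0.34 ± 0.27, and the kinase Rps6ka4 had -0.41 ± 0.33. Neither edgeR nor DESeq2 called any gene of these 4 lists.

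18S rRNA itself, as the row Rn18s, had 70450, 70229, 95349 and 74385 counts. MSCATV-Exo replicate 1 was highest and the other 3 libraries were close, with a log2 fold change of 0.27 ± 0.10 (SE, edgeR adjusted p = 1.00). The ratio of summed large-subunit to small-subunit counts was 1.61, 1.62, 1.55 and 1.45, so the small-subunit genes took a slightly larger part of the ribosomal protein counts in both MSCATV-Exo libraries than in both MSC-Exo libraries.

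The table also holds 564 other rows described as one of the 31 proteins, 516 of them pseudogenes or of type misc_RNA and 48 protein-coding. Together they held 40161 counts over the 4 libraries, against 45253 for the 35 genes themselves. Most were low, with a median level of 3.55 RPKM against 2.72 RPKM for olfactory receptor genes, and 6.03% exceeded 3 times that background. For some proteins the other rows held more counts than the gene itself: S10 had 2613 against 741 in Rps10, and S19 had 2052 against 17 in the Rps19 row on chromosome 1. Protein S2 had the most other rows, 38.

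Counts of all rows described as the same protein were then summed, an alternative chosen after seeing the data. Of 31 proteins 23 were higher in MSCATV-Exo, and the median was 0.18 (log2). Groups were apart with MSCATV-Exo above for 13 and below for 2, against 16.1% and 17.4% of all genes tested in that fit, and edgeR again called none. S24 had a log2 fold change of 0.73 and S28 of 0.63, while S10 had 0.08, with libraries at 152, 154, 148 and 175 CPM. So the separation of the groups seen for the row Rps10 was not seen for the S10 rows together. For the 3 proteins whose own rows held 0 or few counts, the sums came almost wholly from other rows: S6 had 0.33, S19 0.50 and S9 -0.51, the last with MSCATV-Exo the lower in all 4 pairings of libraries. Whether these counts stem from the genes of the 3 proteins or from background was not tested.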

How the data were processed

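Total RNA of exosomes was sequenced in 4 libraries, 2 a group. Per the submitters' processing notes, TopHat2 and the rat build rn6 (also named Rnor_6.0) were used. Versions, the counter, the annotation and the handling of reads with several alignments are not given in the sources used here. The authors deposited whole-number read counts per gene and, beside them, RPKM values (per the file headers). The authors' deposited comparison table holds group means in RPKM, a log2 ratio, a p-value and a q-value.

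The main test was a two-sided quasi-likelihood test of the counts (edgeR 4.0.16, R 4.3.3) after filterByExpr and TMM scaling, with Benjamini-Hochberg adjusted p-values over 33480 genes and a threshold of 0.05. The filter kept 31 of the 35 genes. DESeq2 1.42.0 and limma 3.58.1 on log2(RPKM + 1) and log2(RPKM + 0.1), for mean RPKM of at least 1, were alternatives. The biological coefficient of variation was 0.559. The scripts were tested on simulated data. Replicates differed beyond counting noise (chi-square per degree of freedom 10.5 and 14.4). Genes given in every library were the 6 highest and 4 lowest by RPKM, the 8 smallest p-values, DESeq2 calls, the 3 lowest fold changes, paralogues and fusions. From the lists of genes that build and use the subunit, the smallest edgeR p in each direction was named. Results of some genes of the set are not reported here by name and are left out of the plots of single genes, but all enter the fits and the counts. Genes described outside that rule (Rps25 and Rps3a) were chosen after their values were seen. The genes and lists were chosen with earlier results of these data known. The non-coding tables were not used here, and no sequences are printed.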

Additional observations from a re-analysis of the deposited data

How the results depend on the processing

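The count of small-subunit genes called was 0 in the main test, 1 with DESeq2 (Rps24, log2 fold change 1.09, adjusted p = 0.0136) and 0 to 1 with a library left out, the 1 being Rps4y2 without MSCATV-Exo replicate 2. It was 0 in every other alternative run. Over all genes the calls were 0 with edgeR, 106 with DESeq2, 8 with no filter on low counts, 2 among genes above 3 times the olfactory receptor median, 4 with the replicate block, and 1 to 168 with a library left out. The labels do not say that replicate numbers pair the libraries. The correlation of same-numbered deviations was -0.000516 over all genes and 0.251 over the small-subunit genes, with 2 pairs, and with the replicate block 29 of 31 genes were higher with a median of 0.35, no call of a small-subunit gene changing. The median log2 fold change of 0.43 was 0.18 with rows of the same protein summed and 0.22 to 0.50 with a library left out, lowest without MSC-Exo replicate 1, and it stayed above 0 in every setting run. Total counts without a factor moved the median of all genes to -0.11 and that of the small-subunit genes to 0.33. Genes with groups apart and MSCATV-Exo above numbered 16, 10 on total counts, and 13 with rows summed, when 2 proteins were apart the other way. Shares of counts with ribosomal RNA rows and LOC257642 taken out were 0.266%, 0.322%, 0.358% and 0.392%. The sign turned for Rps18 (-0.025 in both limma fits, -0.015 on total counts, -0.011 among genes above the background), Rps20 (-0.086 in both limma fits, -0.087 on total counts, -0.082 above the background) and Rps23 (-0.054 in both limma fits, -0.0024 with no filter, -0.082 above the background, -0.093 on total counts). With a library left out, Rps18 ran from -0.13 to 0.29, Rps20 from -0.033 to 0.059, Rps21 from -0.37 to 0.24, Rps23 from -0.32 to 0.41, Rps27 from -0.024 to 0.69 and Rps4y2 from -5.93 to 0.26. Others that took both signs were Rps10l1 (-0.86 to 1.15), Rps7 (-0.20 to 0.70), Rps26 (-0.12 to 0.43) and Rps3 (-0.019 to 0.24). The causes were not tested. With a group reduced to 1 library, that library is assumed to vary like the other group. Precision is limited by 2 libraries a group and, for the 7 genes below the abundant ones, by counts under 100 in every library.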
